A study of Mus musculus with 16 samples.

Results

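The myeloid C-type lectin receptors are the cell-surface receptors of monocytes, macrophages, dendritic cells and neutrophils that carry a C-type lectin fold and recognize sugars, glycolipids or the contents of dead cells. The 10 genes described here were chosen by name, namely Clec4d, Clec4e, Clec4n, Clec7a, Clec5a, Clec4a1, Clec4a2, Clec4a3, Clec10a and Clec12a, out of 20200 genes in the count table, and all 10 were among the 11998 genes that passed the filter on low counts. Bulk RNA-seq was measured in myeloid cells flow-sorted from the tissue between tendon graft and bone after anterior cruciate ligament reconstruction (ACLR) in wild-type C57BL/6 mice. Live CD45+ CD11b+ cells without lineage markers were divided into CD9+ macrophages (Ly6G-, F4/80+, CD9+), CX3CR1+ macrophages (Ly6G-, F4/80+, CX3CR1+), F4/80- myeloid cells (Ly6G-, F4/80-) and neutrophils (Ly6G+), on postoperative days (PODs) 1 and 14. Each of the 8 groups had 2 libraries, each made from the pooled cells of several mice, so that the spread between replicates is a spread between pools. All groups had undergone surgery, and no tissue from mice without surgery was analysed here. The rare cells positive for both CD9 and CX3CR1 fell into the CD9+ sort.

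C-type lectin receptors of myeloid cells are divided by the signal they send. Clec7a (Dectin-1, a beta-glucan receptor) carries an activating motif in its own tail, whereas Clec4e (Mincle, which binds mycobacterial glycolipids and the SAP130 protein of dead cells), Clec4d (MCL, the partner of Mincle) and Clec4n (Dectin-2, a receptor for fungal mannans) act through the Fc receptor gamma chain encoded by Fcer1g, and Clec5a (MDL-1) acts through the adaptor DAP12 encoded by Tyrobp. These receptors pass their signal to the kinase Syk and to Card9, which leads to NF-kappaB activity and to the production of IL-1, CXCL and TNF family products. Clec4a2 (DCIR) and Clec12a (MICL, a receptor for uric acid crystals) carry inhibitory motifs that recruit phosphatases, Clec4a1 (DCIR4) and Clec4a3 (DCIR3) are relatives of DCIR, and Clec10a (MGL1) is an endocytic lectin for galactose-type sugars.

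The genes lie close together in the genome. Of the 10 genes, 9 are on chromosome 6 of mm10, and 6 of these fall within 368 kb. In order these are Clec4a1 (chr6:122921848-122934619), Clec4a3 (chr6:122952515-122969875), Clec4a2 (chr6:123106428-123143999), Clec4n (chr6:123229843-123247021), Clec4d (chr6:123262111-123275265) and Clec4e (chr6:123281789-123289870), of which Clec4e alone is on the minus strand. Clec12a (chr6:129342691-129365303) and Clec7a (chr6:129461591-129472779, minus strand) lie in a second block that spans 130 kb, Clec5a (chr6:40574894-40585821, minus strand) lies apart from both, and Clec10a is on chromosome 11 (chr11:70156197-70170834). None of the 10 genes shares exon sequence by position with another annotated gene. By sequence, 9.02% of the 50-base windows of Clec10a transcripts are also found in another gene, chiefly its neighbour Mgl2, and 6.83% of those of Clec4a2, chiefly in Clec4a4, so the counts of these 2 genes are less certain than the others. The annotation columns of the table class Clec7a as a polymorphic pseudogene, a term for a gene that is intact in some strains only.

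Promoters are shown for the neighbouring genes that moved together across the libraries, Clec4d with Clec4e and Clec4a1 with Clec4a3, because each pair shares a stretch of chromosome 6 while the pairs had different patterns. RefSeq promoter windows on GRCm38.p6 (the assembly of mm10), from 250 bases before to 50 bases after a start site, were found for 8 of the 10 genes. They were searched on both strands for TTGCNNAA (C/EBP), GGG followed after 5 letters by CC (NF-kappaB), TGANTCA (AP-1), GAGGAA (the core bound by PU.1), TATAAA (the TATA box) and GAAA repeated after 2 letters (interferon response). Capitals mark the matches, and each sequence is written 5′ to 3′ on the strand of its gene, at chr6:123261857-123262156 (plus strand) for Clec4d, chr6:123289822-123290121 (minus strand) for Clec4e, chr6:122921598-122921897 (plus strand) for Clec4a1 and chr6:122952394-122952693 (plus strand) for the downstream start site of Clec4a3.
Clec4d promoter: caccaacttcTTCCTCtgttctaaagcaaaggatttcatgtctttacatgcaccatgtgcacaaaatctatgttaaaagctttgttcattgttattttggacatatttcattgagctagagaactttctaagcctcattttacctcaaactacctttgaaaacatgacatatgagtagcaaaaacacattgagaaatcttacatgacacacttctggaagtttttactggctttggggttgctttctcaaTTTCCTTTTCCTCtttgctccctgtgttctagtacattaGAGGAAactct
Clec4e promoter: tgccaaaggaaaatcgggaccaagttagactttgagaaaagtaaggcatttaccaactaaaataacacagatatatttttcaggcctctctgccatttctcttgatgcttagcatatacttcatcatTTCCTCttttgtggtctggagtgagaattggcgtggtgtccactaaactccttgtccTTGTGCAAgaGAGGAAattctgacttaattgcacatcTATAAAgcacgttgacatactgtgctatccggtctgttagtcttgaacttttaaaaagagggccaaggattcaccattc
Clec4a1 promoter: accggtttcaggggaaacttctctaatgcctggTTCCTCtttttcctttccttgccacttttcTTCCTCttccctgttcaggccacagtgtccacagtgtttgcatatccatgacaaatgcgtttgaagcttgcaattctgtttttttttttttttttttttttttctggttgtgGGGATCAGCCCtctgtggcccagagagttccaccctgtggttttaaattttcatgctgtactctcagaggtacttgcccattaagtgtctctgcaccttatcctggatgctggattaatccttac
Clec4a3 promoter: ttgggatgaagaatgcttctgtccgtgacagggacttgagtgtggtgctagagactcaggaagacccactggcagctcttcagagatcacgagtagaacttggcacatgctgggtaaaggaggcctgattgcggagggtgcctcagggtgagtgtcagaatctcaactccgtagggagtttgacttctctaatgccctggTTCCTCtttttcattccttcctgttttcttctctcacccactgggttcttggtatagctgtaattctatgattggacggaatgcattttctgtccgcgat
The window of Clec4e holds a C/EBP match that begins 66 bases before the start site, PU.1 matches 123 and 56 bases before it and a TATA box 29 bases before it. The window of Clec4d holds 3 PU.1 matches and 1 interferon response match (a run of GAAA repeats on the minus strand at the start site), and no C/EBP match. Clec4a1 and Clec4a3 share a run of 17 letters around a PU.1 match, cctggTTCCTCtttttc, which begins 222 bases before the start site of Clec4a1 and 55 bases before that of Clec4a3, and Clec4a1 has 2 overlapping NF-kappaB matches besides. Of all 32851 promoter windows, 10.8% hold a C/EBP match, 50.8% an NF-kappaB match, 7.81% an AP-1 match, 28.3% a PU.1 match, 13.6% a TATA box and 3.44% an interferon response match. The window of the upstream start site of Clec4a3 holds no match, and its longest run shared with Clec4a1 is 8 letters. For Clec4d and Clec4e the longest shared run is 10 letters, also at a PU.1 match. A match is a run of letters and not a measured binding site.

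The depth was 10587857 to 19814119 counts per library on POD 1 and 9233952 to 12721779 on POD 14. A count of 3, taken as the limit of detection, corresponded to 0.132 to 0.361 CPM (counts of a gene scaled to a common library size). Summed neutrophil markers (11 genes) stood at 57940 to 122500 CPM in neutrophils against 513 to 1103 in CX3CR1+ macrophages and summed macrophage markers (12 genes) at 1630 to 4057 CPM in both macrophage populations against 614 to 685 in F4/80- cells. In neutrophils the macrophage markers summed to 1351 and 1368 CPM on POD 1, near the lowest CD9+ library, and to 549.4 and 554.2 CPM on POD 14. Neutrophil markers were also present in CD9+ macrophages, at 18730 and 5777 CPM on POD 1 and at 20690 and 13850 CPM on POD 14, and in F4/80- cells, at 33510 to 43560 CPM. Eosinophil markers (5 genes) summed to 505 and 568 CPM in CD9+ macrophages on POD 1 and to 5861 and 9448 CPM on POD 14, and in the libraries of every other group to 16.95 to 116.3 CPM. The 2 CD9+ libraries of POD 1 were the least alike of all replicates, with a Pearson correlation of 0.935 over genes against 0.976 to 0.988 in the other groups. In bulk RNA, fewer cells of a type and less RNA per cell cannot be told apart.

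The 10 receptors differed widely in where they were expressed. Clec4d, Clec4e and Clec5a were at their highest in neutrophils, Clec4a1, Clec4a3 and Clec10a in macrophages, and Clec4a2 and Clec12a were present in all groups. Between the highest and the lowest of the 8 group means, Clec4d spanned 333-fold, Clec4n 82.5-fold, Clec4e 52.0-fold, Clec4a1 48.5-fold, Clec4a3 41.2-fold and Clec5a 16.8-fold, whereas Clec7a spanned 7.99-fold, Clec4a2 3.14-fold and Clec12a 2.61-fold. Divided by exon length, the level of Clec7a was the highest of the 10 in both macrophage populations on both days, from 67.5 CPM per kb in CD9+ macrophages on POD 14 to 243.5 CPM per kb in CX3CR1+ macrophages on POD 14. In F4/80- cells Clec5a was the highest on this scale (62.7 CPM per kb on POD 1 and 44.5 on POD 14, where Clec12a reached 43.4 and Clec7a 42.8). In neutrophils Clec4d led on POD 1 with 432.8 CPM per kb and Clec7a on POD 14 with 215 CPM per kb.

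**Figure D1:**
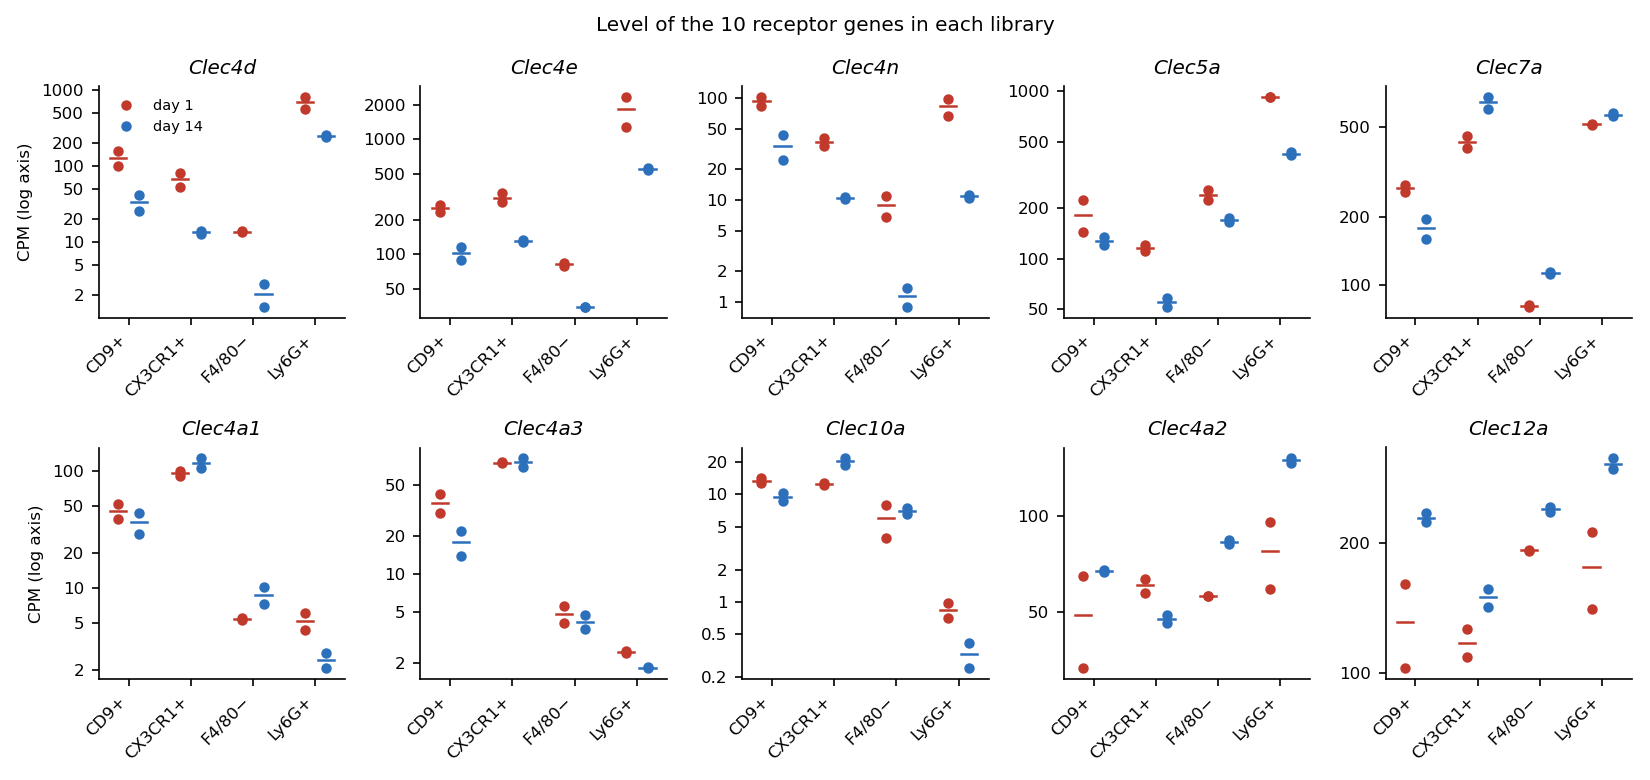
Level of each receptor gene in CPM (log axis, a separate range in each panel) in the 2 libraries of each sorted population on POD 1 (red) and POD 14 (blue). Points are libraries and short lines are group means (n = 2). Clec4d, Clec4e and Clec4n lay lower on POD 14 in each population, while Clec7a lay lower in CD9+ and higher in CX3CR1+ macrophages.

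The first question was how the receptors changed between PODs 1 and 14 within each population. Clec4d, Clec4e and Clec4n, the receptors that act through the Fc receptor gamma chain, fell in all 4 populations, and no receptor gene rose past the thresholds (an adjusted p under 0.05 together with a log2 fold change of 1 or more in either direction) in any of them. In CD9+ macrophages 4 of the 10 genes were called lower and 0 higher, where 3.48% of all genes tested by edgeR were called lower and 4.75% higher. In CX3CR1+ macrophages 4 were called lower and 0 higher (background 3.47% lower and 2.39% higher), in F4/80- cells 3 were called lower and 0 higher (2.24% and 1.01%), and in neutrophils 5 were called lower and 0 higher (10.9% and 3.15%). DESeq2 likewise called 0 receptors higher, and by edgeR at an unadjusted p under 0.05 the receptors higher on POD 14 numbered 1 in CD9+ macrophages, 2 in CX3CR1+ macrophages, 3 in F4/80- cells and 2 in neutrophils. The median log2 fold change of the 10 genes was -0.55 in CD9+ macrophages, -0.17 in CX3CR1+ macrophages, 0.02 in F4/80- cells and -1.13 in neutrophils, and that of all genes tested lay between -0.02 and 0.03.

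Clec4d, the partner chain of Mincle, stood at 101 and 156 CPM in the CD9+ libraries of POD 1 and at 25.3 and 41.5 CPM on POD 14, a log2 fold change of -1.94 (SE 0.28, adjusted p = 0.000342). In CX3CR1+ macrophages it went from 53.6 and 80.4 CPM to 12.5 and 14.0 CPM, a log2 fold change of -2.33 (SE 0.30, adjusted p = 0.000101). In both macrophage populations each library of POD 14 lay below each library of POD 1, a separation of the days that 51.8% of all genes showed in CD9+ and 63.1% in CX3CR1+ macrophages in either direction. F4/80- cells held little of it, 13.5 and 13.8 CPM on POD 1 against 1.38 and 2.77 CPM on POD 14, which are 19 and 34 counts (log2 fold change -2.73, SE 0.38, adjusted p = 0.000436). Neutrophils had the highest level on both days, 559.6 and 825 CPM on POD 1 and 258 and 240.5 CPM on POD 14 (log2 fold change -1.47, SE 0.27, adjusted p = 0.000804). The fall in neutrophils was thus from a level that no macrophage library reached.

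Clec4e, which encodes Mincle, read 232 and 268 CPM in CD9+ macrophages on POD 1 and 89.7 and 115 CPM on POD 14 (log2 fold change -1.29, SE 0.22, adjusted p = 0.00101). CX3CR1+ macrophages showed a change of the same size, from 283 and 340.4 CPM to 129 and 134 CPM (-1.25, SE 0.21, adjusted p = 0.00132). The change in F4/80- cells was from 83.5 and 79.6 CPM to 34.8 and 35.1 CPM (-1.22, SE 0.22, adjusted p = 0.00379). Clec4e fell by nearly the same factor in these populations, 2.33-fold to 2.44-fold, although its level differed among them. In neutrophils the libraries of POD 1 read 1280.3 and 2353 CPM, 1.84-fold apart, and those of POD 14 read 558 and 535 CPM (log2 fold change -1.73, SE 0.22, adjusted p = 2.74e-05). With either F4/80- library of POD 14 left out, the call in F4/80- cells was lost at an adjusted p of 0.0529 and 0.0534, the log2 fold change being -1.21 in each case.

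Clec4n, the gene of Dectin-2, was at 84.5 and 104 CPM in CD9+ macrophages on POD 1 and at 25.0 and 43.1 CPM on POD 14 (log2 fold change -1.47, SE 0.26, adjusted p = 0.00169). In CX3CR1+ macrophages it read 34.0 and 40.2 CPM and then 10.2 and 10.7 CPM (-1.83, SE 0.28, adjusted p = 0.000526). Neutrophils had 67.1 and 98.6 CPM on POD 1, overlapping the CD9+ macrophages, and 11.2 and 10.6 CPM on POD 14 (-2.93, SE 0.29, adjusted p = 2.85e-06). The fall in neutrophils was 7.595-fold, where that of Clec4d in the same cells was 2.77-fold and that of Clec4e 3.32-fold. In F4/80- cells 140 and 238 counts were found on POD 1 and 19 and 11 counts on POD 14 (log2 fold change -2.94, SE 0.37, adjusted p = 0.000275).

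Clec5a, the DAP12-coupled receptor, was highest in neutrophils and fell there from 918 and 929 CPM to 432 and 415 CPM (log2 fold change -1.13, SE 0.17, adjusted p = 0.000131). It also fell in CX3CR1+ macrophages, from 111 and 121 CPM to 58.4 and 51.4 CPM (-1.08, SE 0.17, adjusted p = 0.000634), a call that was lost without the POD 14 library of replicate 2 (-0.99). In CD9+ macrophages the libraries of POD 1 read 223 and 143 CPM and those of POD 14 read 135 and 121 CPM, a difference of -0.52 (SE 0.17, adjusted p = 0.0439) that did not reach the fold threshold. F4/80- cells gave a similar value of -0.50 (SE 0.16, adjusted p = 0.0937). The 2 neutrophil libraries of POD 1 were within 1.01-fold of each other for this gene while they were 1.84-fold apart for Clec4e.

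Clec7a, the beta-glucan receptor Dectin-1, changed in opposite directions in the macrophage populations at the adjusted p threshold. In CD9+ macrophages it read 277 and 257 CPM on POD 1 and 159.6 and 196 CPM on POD 14 (log2 fold change -0.59, SE 0.13, adjusted p = 0.00548). CX3CR1+ macrophages read 403 and 457 CPM on POD 1 and 602 and 682 CPM on POD 14 (0.58, SE 0.12, adjusted p = 0.00627). Neither change reached the fold threshold, but each was past the adjusted p, and on each side the libraries of the 2 days did not overlap. F4/80- cells went from 79.8 and 81.1 CPM to 114 and 112 CPM (0.49, SE 0.13, adjusted p = 0.0315), and neutrophils from 516 and 511 CPM to 576 and 559 CPM (0.14, SE 0.12, adjusted p = 0.426).

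Among the DCIR relatives, Clec4a3 was called lower in CD9+ macrophages only, where it read 42.4 and 30.3 CPM on POD 1 and 13.7 and 21.6 CPM on POD 14 (log2 fold change -1.05, SE 0.23, adjusted p = 0.00598). This call lay at the threshold and was lost without replicate 1 of POD 1 (-0.78), without replicate 1 of POD 14 (-0.74), and with scaling by library size (-0.87) or by the upper quartile (-0.9975). In CX3CR1+ macrophages the same gene read 75.6 and 74.1 CPM on POD 1 and 69.5 and 81.3 CPM on POD 14, a difference of 0.01 (SE 0.21, adjusted p = 0.985). Clec4a1 was called lower in neutrophils only, from 81 and 50 counts to 23 and 20 counts (-1.13, SE 0.32, adjusted p = 0.0164), and this call was lost without replicate 1 of POD 1 (-0.87) or replicate 2 of POD 14 (-0.92). In the same neutrophil sort 9 of the 12 macrophage markers were called lower, among them Csf1r, the receptor of macrophage colony-stimulating factor (group means of 374 and 113 CPM), and Cd68 (151 and 46.1 CPM), and their part in the change of Clec4a1 was not tested. In CX3CR1+ macrophages Clec4a1 read 90.2 and 100.03 CPM on POD 1 and 106 and 128 CPM on POD 14 (0.30, SE 0.21, adjusted p = 0.412), and in CD9+ macrophages the libraries of the 2 days overlapped (38.9 and 51.4 CPM against 28.7 and 43.9 CPM).

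The inhibitory receptors gave no call over time, and their largest differences were upward. Clec12a, the uric acid receptor MICL, read 161 and 102 CPM in CD9+ macrophages on POD 1 and 235 and 224 CPM on POD 14 (log2 fold change 0.80, SE 0.20, adjusted p = 0.0115). In neutrophils it read 212 and 140.4 CPM and then 297 and 316 CPM (0.80, SE 0.20, adjusted p = 0.00684). Clec4a2, the gene of DCIR, read 95.8 and 59.0 CPM in neutrophils on POD 1 and 152 and 146 CPM on POD 14 (0.94, SE 0.24, adjusted p = 0.00864). In each case the 2 libraries of POD 1 were 1.51-fold to 1.62-fold apart, and single libraries decided whether the fold threshold was passed. Without replicate 1 of the POD 1 neutrophils both genes passed the fold threshold (Clec4a2 at 1.34 and Clec12a at 1.13), and without replicate 1 of the POD 1 CD9+ macrophages both passed it there (Clec4a2 at 1.01 and Clec12a at 1.17). Clec10a, the galactose-type lectin, gave a difference of -0.50 (SE 0.30, adjusted p = 0.283) in CD9+ macrophages and of 0.71 (SE 0.29, adjusted p = 0.137) in CX3CR1+ macrophages.

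**Figure D2:**
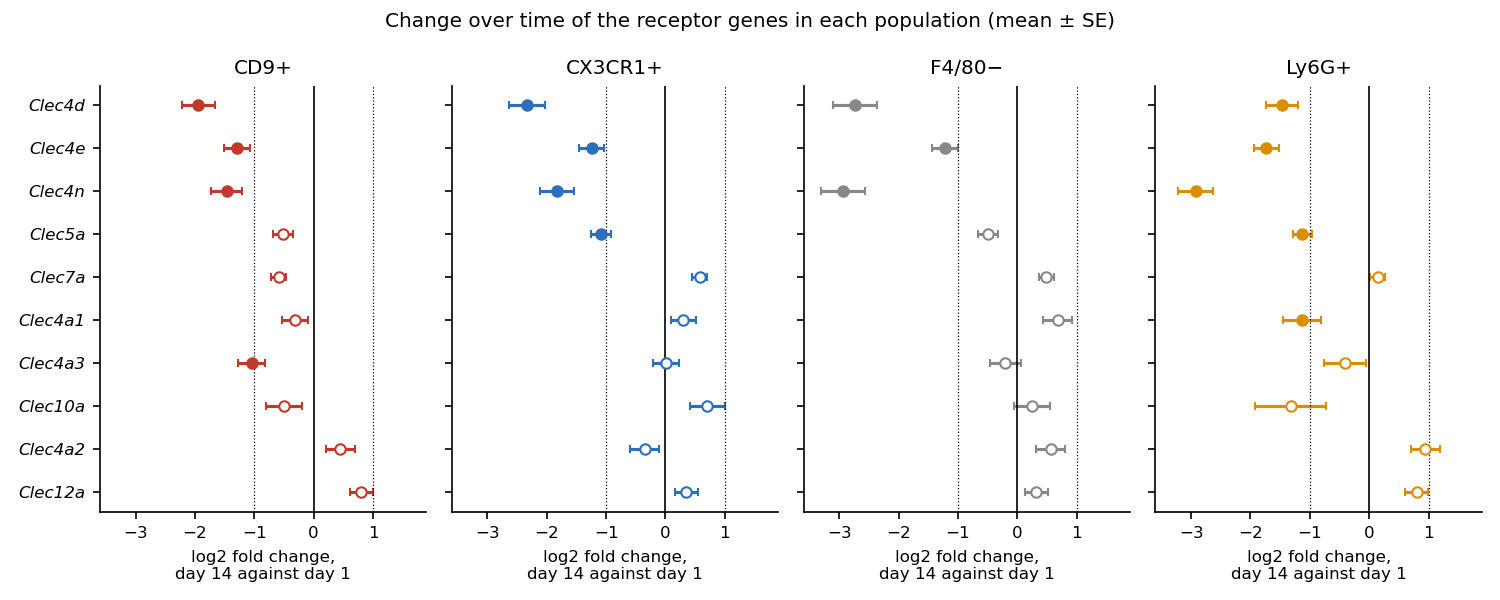
Log2 fold change of POD 14 against POD 1 for each receptor gene in the 4 sorted populations, with bars of 1 standard error from the fit across all genes (2 libraries against 2). Filled points passed both thresholds, open points did not, and dotted lines mark a log2 fold change of 1 in either direction. Clec4d, Clec4e and Clec4n are filled on the left in all 4 panels.

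Markers of several cell types also changed in the sorts over the same days. The shares of all genes called in each population are those given above. In CD9+ macrophages 4 of the 5 eosinophil markers rose and 0 fell, and of the 11 neutrophil markers 2 rose and 1 fell. The POD 1 library with fewer neutrophil markers (5777 against 18730 CPM) had the higher Clec4d, Clec4e, Clec4n, Clec4a1 and Clec10a. It had the lower Clec5a, Clec7a, Clec4a2, Clec4a3 and Clec12a. In CX3CR1+ macrophages, where neutrophil markers summed to 1090 and 1103 CPM on POD 1 and 513 and 671 CPM on POD 14, 1 of the 11 rose and 3 fell. There 2 of 6 dendritic cell markers tested rose and 0 fell, and of 5 platelet or erythroid markers tested 2 rose and 2 fell. Of 5 eosinophil and 3 stromal or endothelial markers tested, 1 each rose and 0 fell. Of the 12 macrophage markers, 3 fell in CD9+ macrophages, 7 in CX3CR1+ macrophages, 1 in F4/80- cells and 9 in neutrophils. In CD9+ macrophages 3 of 5 basophil or mast cell markers also rose and 2 of 5 platelet or erythroid markers tested fell, and in F4/80- cells 4 of 11 neutrophil markers fell and 2 of 5 eosinophil markers rose. In neutrophils 2 of 11 neutrophil markers rose, and of 5 eosinophil markers 2 rose and 2 fell. Of 6 dendritic cell and 5 platelet or erythroid markers tested there, 1 each fell and 0 rose. The part of these cells in the values above was not tested.

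A next question was whether the change over time differed between populations, for which the model gave an interaction term. Of the 10 receptors, 1 differed between CD9+ and CX3CR1+ macrophages at an adjusted p under 0.05, against 2.84% of all genes tested. This was Clec7a, with a difference between its log2 fold changes of -1.17 (SE 0.18, adjusted p = 0.00239). The difference was -1.06 (SE 0.31) for Clec4a3 and -1.20 (SE 0.42) for Clec10a, at adjusted p-values of 0.0895 and 0.159. For Clec4d, Clec4e and Clec4n the difference between the macrophage populations was 0.39 (SE 0.40), -0.04 (SE 0.30) and 0.36 (SE 0.38), which left room for sizeable differences in either direction. The neutrophils differed from the mean of both macrophage populations in 2 receptors (background 14%), Clec4n with -1.28 (SE 0.34, adjusted p = 0.0208) and Clec4a1 with -1.13 (SE 0.36, adjusted p = 0.0483). Both rested on single libraries, since neither was called without either POD 14 neutrophil library. Clec4n was also lost without neutrophil replicate 2 of POD 1 (-0.97). Clec4a1 was also lost without neutrophil replicate 1 of POD 1 (-0.87), without CD9+ replicate 1 of POD 1 or replicate 2 of POD 14, without any 1 of the 4 CX3CR1+ libraries, with no filter on low counts and with the filter of edgeR's filterByExpr function (-1.16 to -0.93 in these cases). In F4/80- cells 0 of the 10 receptors differed from the macrophages by edgeR (background 1.1%) and 3 did at an unadjusted p under 0.05, of which Clec4n (-1.29, SE 0.43) and Clec7a (0.49, SE 0.15) had the smallest p-values, and DESeq2 called 1, Clec7a. Single pairs of populations were compared after the data were seen. The change over time differed in 1 receptor between CD9+ macrophages and F4/80- cells (background 2.01%), in 2 between CD9+ macrophages and neutrophils (11.2%), in 2 between CX3CR1+ macrophages and neutrophils (12.3%), in 1 between F4/80- cells and neutrophils (10.8%) and in 0 between CX3CR1+ macrophages and F4/80- cells by edgeR (1.17%), where 3 had an unadjusted p under 0.05.

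The study was also designed to compare CD9+ with CX3CR1+ macrophages on each day. On POD 1, 1 receptor was called higher in CD9+ cells and 2 were called lower, where 6.36% and 1.88% of all genes tested were called. On POD 14, 3 were higher and 4 lower (background 9.65% and 4.55%). Clec4n was higher in CD9+ macrophages on both days, by 2.53-fold on POD 1 (log2 fold change 1.34, SE 0.26, adjusted p = 0.00257) and by 3.26-fold on POD 14 (1.70, SE 0.28, adjusted p = 0.000329). Clec4d and Clec5a were higher in CD9+ macrophages by 2.51-fold (adjusted p = 0.00374) and 2.33-fold (adjusted p = 6.74e-05) on POD 14, and on POD 1 they gave log2 fold changes of 0.94 (SE 0.27) and 0.66 (SE 0.17) under the fold threshold. The call of Clec4d on POD 14 was lost without the CD9+ library of replicate 2 (0.92), and on POD 1 Clec4d was called without the CD9+ library of replicate 1 (1.22) or the CX3CR1+ library of replicate 2 (1.23). Clec4e, the partner of Clec4d, differed by -0.32 (SE 0.21, adjusted p = 0.348) on POD 1 and by -0.36 (SE 0.21, adjusted p = 0.249) on POD 14.

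The receptors that were lower in CD9+ than in CX3CR1+ macrophages were the DCIR relatives and, on POD 14, Clec7a and Clec10a. Clec4a1 was 2.11-fold lower on POD 1 (log2 fold change -1.08, SE 0.22, adjusted p = 0.00344) and 3.23-fold lower on POD 14 (-1.69, SE 0.22, adjusted p = 3.82e-05). For Clec4a3 the difference was 2.05-fold (-1.04, SE 0.22, adjusted p = 0.00469) and then 4.27-fold (-2.10, SE 0.23, adjusted p = 6.81e-06). Both calls of POD 1 lay at the threshold, that of Clec4a1 being lost without the CD9+ library of replicate 1 (-0.89) and that of Clec4a3 without the CD9+ library of replicate 2 (-0.82). Clec7a was 3.61-fold lower on POD 14 (-1.85, SE 0.13, adjusted p = 7.42e-08) after a difference of -0.69 (SE 0.13, adjusted p = 0.0016) on POD 1. Clec10a read 10.3 and 8.72 CPM against 18.6 and 21.7 CPM on POD 14 (-1.09, SE 0.30, adjusted p = 0.0147), a call that was lost without either CD9+ library of that day (-1.21 and -0.99) and without CX3CR1+ replicate 2 (-0.99). Markers of neutrophils (9 of 11), eosinophils (5 of 5) and basophils or mast cells (5 of 5) were called higher in CD9+ cells on both days. Of the 11 neutrophil markers, 1 was called lower on POD 1 and 2 on POD 14. Among all genes 6.36% were called higher and 1.88% lower on POD 1, and 9.65% and 4.55% on POD 14. Clec4a1, Clec4a3 and Clec10a were low or near the limit of detection in neutrophils. The part of neutrophils, eosinophils and basophils or mast cells in the differences was not tested.

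**Figure D3:**
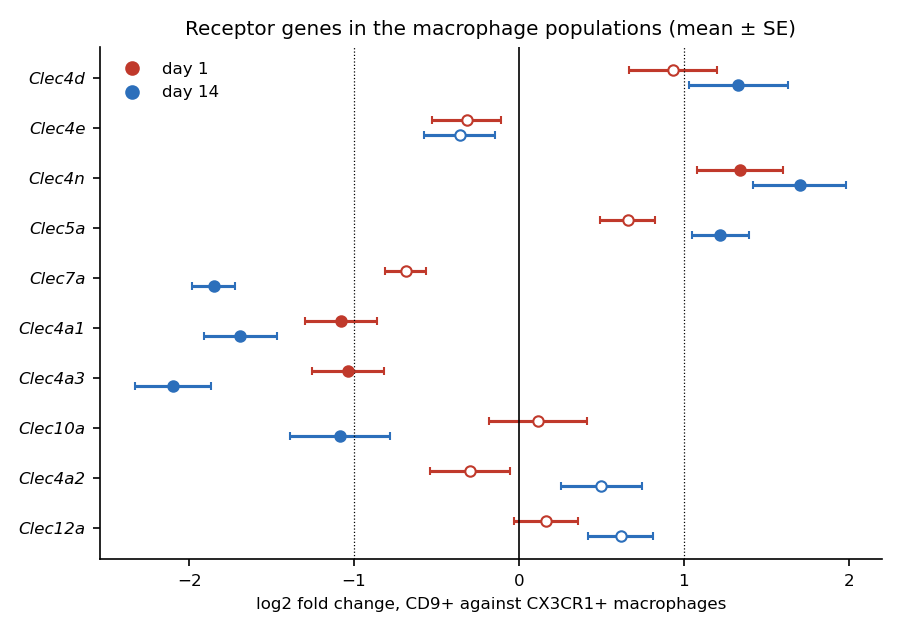
Log2 fold change of CD9+ against CX3CR1+ macrophages for each receptor gene on POD 1 (red) and POD 14 (blue), with bars of 1 standard error (2 libraries against 2). Filled points passed both thresholds and dotted lines mark a log2 fold change of 1 in either direction. Clec4n lies to the right and Clec4a1 and Clec4a3 to the left on both days, and Clec7a moves from -0.69 to -1.85.

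Against F4/80- myeloid cells, both macrophage populations had more of most receptors. In CD9+ macrophages 7 receptors were called higher and 0 lower on POD 1 (background 9.23% and 6.16%) and 5 higher and 0 lower on POD 14 (6.59% and 1.11%). DESeq2 likewise called 0 lower on both days, and by edgeR 2 receptors on POD 1 and 1 on POD 14 were lower at an unadjusted p under 0.05. For CX3CR1+ macrophages the counts were 7 and 1 on each day (background 10.2% and 10.9% on POD 1 and 11.1% and 10.4% on POD 14). In CD9+ macrophages the largest differences were those of Clec4n and Clec4d, 10.6-fold and 9.36-fold higher on POD 1 and 29.3-fold and 16.2-fold higher on POD 14. In CX3CR1+ macrophages they were those of Clec4a1 and Clec4a3, 17.5-fold and 15.4-fold higher on POD 1 and 13.4-fold and 17.9-fold higher on POD 14. Clec5a ran opposite, being 2.08-fold lower in CX3CR1+ macrophages than in F4/80- cells on POD 1 (adjusted p = 0.000126) and 3.11-fold lower on POD 14 (adjusted p = 2.29e-06), and the POD 1 call was lost without the F4/80- library of replicate 1 (-0.96). Clec10a on POD 1 was 2.25-fold higher in CD9+ and 2.07-fold higher in CX3CR1+ macrophages than in F4/80- cells, whose libraries read 8.0004 and 3.94 CPM, and both calls were lost without the second of these (0.72 and 0.63). The latter was lost also without CX3CR1+ replicate 2 of POD 1 (adjusted p = 0.0545), and the former with scaling by library size (0.89). F4/80- cells carried neutrophil markers at 33510 to 43560 CPM and basophil or mast cell markers at 688 to 1193 CPM, and their part in these differences was not tested.

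Neutrophils had the most Clec4d, Clec4e and Clec5a and the least Clec4a1, Clec4a3 and Clec10a, apart from Clec4a1 on POD 1, for which F4/80- cells read 5.56 and 5.32 CPM and neutrophils 6.07 and 4.39 CPM. On POD 1, 3 receptors were higher and 3 lower in CD9+ macrophages than in neutrophils (background 27.9% and 21.7%), 3 were higher and 4 lower in CX3CR1+ macrophages (26.9% and 24.1%), and 1 was higher and 5 lower in F4/80- cells (26.4% and 22.6%). On POD 14 the counts were 4 higher and 5 lower in CD9+ macrophages (29.6% and 19.9%), 3 higher and 5 lower in CX3CR1+ macrophages (27.1% and 20.9%) and 3 higher and 5 lower in F4/80- cells (27.4% and 21.3%). Between 48% and 51% of all genes were called in these comparisons, and scaling by library size shifted the median over all genes by 0.33 to 0.61 on the log2 scale. Clec4e was 7.26-fold lower in CD9+ macrophages than in neutrophils on POD 1 (adjusted p = 4.52e-08) and 5.34-fold lower on POD 14 (adjusted p = 1.91e-07). Clec4a3 was 15.0-fold higher in CD9+ and 30.7-fold higher in CX3CR1+ macrophages than in neutrophils on POD 1. Clec4n did not follow Clec4d and Clec4e, with a difference of 0.18 (SE 0.26, adjusted p = 0.536) between CD9+ macrophages and neutrophils on POD 1 and a level 3.12-fold higher in CD9+ macrophages on POD 14 (adjusted p = 0.000124). In CX3CR1+ macrophages Clec4n was 2.23-fold lower than in neutrophils on POD 1, which was lost with scaling by library size (-0.59) or the upper quartile (-0.88), without CX3CR1+ replicate 1 (-0.98) and without neutrophil replicate 2 (-0.86).

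With the scaling of the main fit, the mean levels of both inhibitory receptors were highest in neutrophils of POD 14. For Clec12a this order rested on that scaling. Its counts over unscaled library totals were not highest in these neutrophils, whose scaling factors were 0.78 and 0.77. Clec4a2 was 3.14-fold lower in CX3CR1+ macrophages than in these neutrophils (log2 fold change -1.65, SE 0.25, adjusted p = 2.75e-05) and 2.22-fold lower in CD9+ macrophages (-1.15, SE 0.24, adjusted p = 0.00065), the latter falling under the fold threshold with scaling by library size (-0.65) or the upper quartile (-0.92). Clec12a was 2.05-fold lower in CX3CR1+ macrophages (-1.04, SE 0.20, adjusted p = 0.000267) and fell under the threshold with both of these scalings (-0.52 and -0.82), and without replicate 2 of either group (-0.93 and -0.99). Clec10a was found with 13 and 8 counts in neutrophils on POD 1 and with 2 and 4 counts on POD 14, so no fold against neutrophils of POD 14 is given. In macrophages its level lay between 8.72 and 21.7 CPM. Clec7a was not called between CX3CR1+ macrophages and neutrophils, the difference being -0.26 (SE 0.12, adjusted p = 0.0771) on POD 1 and 0.18 (SE 0.12, adjusted p = 0.219) on POD 14. Their libraries did not overlap on either day, as for 84.2% and 87.2% of all genes. Scaling by library size shifted the median over all genes in this comparison by 0.57 on POD 1 and 0.51 on POD 14.

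The genes that carry the signal of these receptors, and the genes that respond to it, were counted over time as well, beside the shares of all genes given above for each population. Of 17 adaptors and kinases tested, 1 rose and 0 fell in CD9+ macrophages, 0 rose and 1 fell in each of CX3CR1+ macrophages and neutrophils, and 0 passed in F4/80- cells by edgeR, where DESeq2 called 1 lower. A count of 1 in 17 is near the share of all genes called (4.75% higher in CD9+ macrophages and 3.47% and 10.9% lower in CX3CR1+ macrophages and neutrophils). At an unadjusted p under 0.05, 2 were higher and 7 lower in CD9+ macrophages, 4 and 4 in CX3CR1+ macrophages, 1 and 2 in F4/80- cells and 1 and 5 in neutrophils. Fcer1g, the shared gamma chain, had mean levels between 273 and 904 CPM and gave log2 fold changes over time between -0.22 and -0.09 in the 4 populations (SE 0.16 in each). Syk, the kinase below it, gave values between -0.21 and 0.00 (SE 0.11). Tyrobp, the adaptor of Clec5a, gave values between -0.44 and 0.02, and Card9, the scaffold protein below Syk, between -0.66 and 0.20. The value of Card9 in CD9+ macrophages (-0.66, SE 0.19, adjusted p = 0.0254) was past the adjusted p but not the fold threshold. The adaptor that rose in CD9+ macrophages was Hcst (DAP10, 1.11, SE 0.29, adjusted p = 0.0174), and the kinase that fell in CX3CR1+ macrophages and neutrophils was Src (-2.73 and -3.49), which averaged 1.54 CPM on POD 1 and 0.229 CPM on POD 14 in CX3CR1+ cells.

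Between populations, part of the 17 adaptors and kinases differed from neutrophils. On POD 1, 8 were lower in CD9+ macrophages than in neutrophils (21.7% of all genes), 8 in CX3CR1+ macrophages (24.1%) and 11 in F4/80- cells (22.6%), with 0 higher in each case by edgeR or DESeq2, and 0 higher at an unadjusted p under 0.05. On POD 14, 10 were lower and 1 higher in CD9+ macrophages (19.9% and 29.6% of all genes), 4 were lower in CX3CR1+ macrophages (20.9%) and 10 in F4/80- cells (21.3%). On POD 1 the log2 fold change of CD9+ macrophages against neutrophils was -1.57 for Tyrobp and -1.22 for Syk. The 3 phosphatases that bind inhibitory motifs (Ptpn6, Ptpn11 and Inpp5d) passed the thresholds over time in no population by edgeR or DESeq2, with medians between -0.52 and -0.09, and 2 of the 3 were lower at an unadjusted p under 0.05 in each macrophage population, while in neutrophils Inpp5d was lower (-0.51, SE 0.17) and Ptpn11 higher (0.32, SE 0.13) at that level. The 3 reported endogenous ligands (Sap130, Vim and Lgals9) likewise gave 0 calls over time by either tool, with 1 lower at an unadjusted p under 0.05 in each of CD9+ macrophages, CX3CR1+ macrophages and neutrophils, and Vim was abundant in all groups, with means of 1268 to 4308 CPM.

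Of 15 genes that this pathway is known to induce, 12 were tested. The list holds cytokine and enzyme genes and, besides these, Nlrp3, Egr2 and Egr3. In CD9+ macrophages 8 fell and 1 rose (median log2 fold change -1.90 against 0.00 for all genes tested), in CX3CR1+ macrophages 5 fell and 0 rose (median -0.72), in F4/80- cells 4 fell and 1 rose (median -0.32) and in neutrophils 10 fell and 0 rose (median -2.78). Il1a, Il1b, Cxcl1 and Cxcl2, which encode interleukin-1 forms and neutrophil-attracting chemokines, were called lower in all 4 populations. On POD 14 Cxcl1 was near the limit of detection, with means of 0.505 CPM in CX3CR1+ macrophages, 0 in F4/80- cells and 0.404 in neutrophils. Il1a likewise averaged 0.304 CPM in F4/80- cells on that day. Il1b fell by 2.53 on the log2 scale in CD9+ macrophages (SE 0.19, adjusted p = 1.45e-06) and by 1.29 in CX3CR1+ macrophages (SE 0.18, adjusted p = 0.000224), and Il1a fell by 4.31 in CD9+ macrophages (SE 0.51, adjusted p = 6.44e-05). Il6 was the 1 gene of the list called higher in CD9+ macrophages, with a rise of 2.28 (SE 0.31, adjusted p = 0.000179). It was also the 1 called higher in F4/80- cells, with a rise of 1.13, where it was most abundant (58.2 and 127.5 CPM on average on PODs 1 and 14). These genes answer to many other receptors, and the part of C-type lectin receptors in their fall was not tested. Of the 8 transcription factor genes, Cebpb rose in CX3CR1+ macrophages (3.03, SE 0.68, adjusted p = 0.00783) and F4/80- cells (3.01, SE 0.68, adjusted p = 0.016), Relb and Nfkb2 fell in neutrophils (-2.81 and -1.90), and 0 of 8 passed in CD9+ macrophages by edgeR or DESeq2 (1 at an unadjusted p under 0.05).

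The other C-type lectin receptor genes included several that rose over time. Of 28 such genes 18 were tested, and in CD9+ macrophages 6 rose and 2 fell (4.75% and 3.48% of all genes), in CX3CR1+ macrophages 4 rose and 1 fell (2.39% and 3.47%), in F4/80- cells 2 rose and 0 fell (1.01% and 2.24%) and in neutrophils 1 rose and 5 fell (3.15% and 10.9%). In F4/80- cells DESeq2 also called 0 of them lower, and 1 was lower by edgeR at an unadjusted p under 0.05. Mgl2, the sister gene of Clec10a, rose in CD9+ (3.36, SE 0.46, adjusted p = 0.000223) and in CX3CR1+ macrophages (3.43, SE 0.50, adjusted p = 0.000322), from group means of 1.4 and 0.4 CPM to 14.3 and 4.8 CPM. Cd209a, a DC-SIGN relative, rose in both (2.80 and 2.75) and in F4/80- cells (1.44). Mrc1, the mannose receptor, rose in CD9+ macrophages (1.31, SE 0.31, adjusted p = 0.0101). The difference between these genes and the 10 receptors as lists was not tested.

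**Figure D4:**
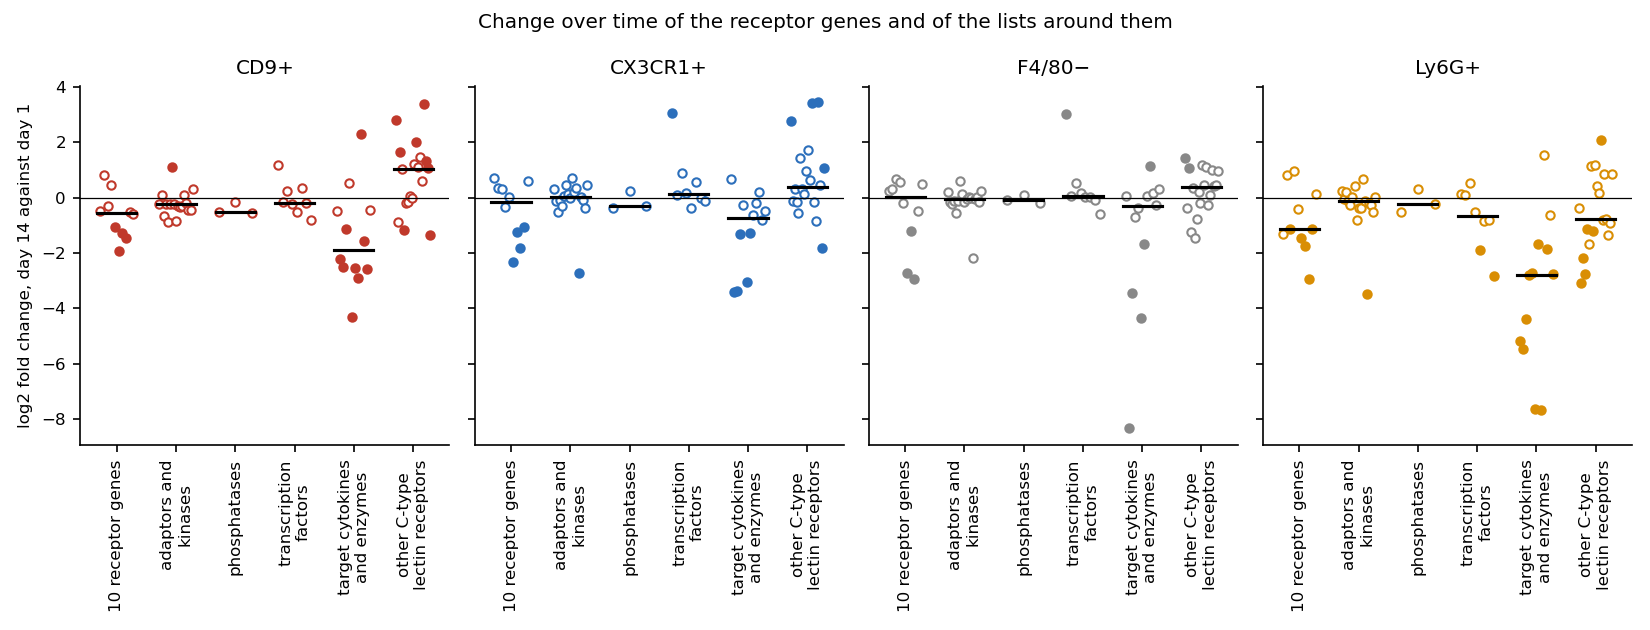
Log2 fold change of POD 14 against POD 1 in the 4 sorted populations for the 10 receptor genes and for the lists of genes around them. Each point is a gene, filled where it passed both thresholds, and the black line is the median of the list. Most adaptors, kinases and phosphatases are open points. The target cytokines and enzymes, a list that also holds Nlrp3, Egr2 and Egr3, have medians between -2.78 and -0.32.

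The receptors were finally compared with all other genes by the Pearson correlation of log2 CPM over the 16 libraries, which form 8 groups of 2 and share population and day, so the values describe likeness of pattern only. The genes most like Clec4e were Il1b (r = 0.990) and Skil (0.987), those most like Clec4d were Bst1 (0.967) and Il1rn (0.964), and those most like Clec4n were Srxn1 (0.970) and Fgd6 (0.963). Clec5a was nearest to Dgat2 (0.989) and to Cxcr2 (0.976), the latter a neutrophil chemokine receptor. Clec4a1 and Clec4a3 shared their nearest gene, Ctsa (0.986 and 0.983), which encodes a lysosomal protease, followed by Zfyve9 (0.980) and Arhgap12 (0.971). Clec7a was nearest to Ifngr2 (0.982), a chain of the interferon-gamma receptor, and Cd300a (0.972), and Clec10a to Nfix (0.991) and the antigen presentation gene H2-DMb1 (0.988). Clec4a2 (Atp8a1, 0.920, and Calcrl, 0.902) and Clec12a (Agps, 0.937, and Atp2a3, 0.920) had looser matches. Among the receptors themselves, Clec4a1 and Clec4a3 gave 0.98 and Clec4d and Clec4e gave 0.96, while Clec5a gave -0.82 with Clec4a1.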

How the data were processed

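Bulk RNA-seq of 16 libraries was analysed, 2 for each of 8 groups of sorted population and day. The authors trimmed the reads, aligned them to mm10 with STAR and deposited raw counts per gene, not normalized, whose filter and strand setting of counting are not given in the sources used here. The counts were fitted with edgeR 4.0.16 in R 4.3.3 in 1 model of 8 group means (trimmed mean of M values scaling, quasi-likelihood test), after a filter on a group mean of at least 3 CPM in at least 1 group, which kept 11998 of 20200 genes. A gene was called at a Benjamini-Hochberg adjusted p under 0.05 over these genes and a log2 fold change of 1 or more in either direction, and an interaction at the adjusted p alone. The replicates are pools, so p-values measure the spread between pools, and for 2 libraries against 2 the smallest p of an exact permutation test would be 0.333. The limit of 3 counts covers counting error only.

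Alternatives were DESeq2 1.42.0, scaling by library size or upper quartile, other filters and thresholds, a replicate block and leaving out each library in turn. All 10 receptors are named. Of the other lists, up to 5 called genes with the largest changes in a comparison were eligible, with Fcer1g, Tyrobp, Syk and Card9 always named. Cxcl1, Il6 and Mrc1 in CD9+ macrophages, and Vim, were named after their values were seen. The receptors, lists and tests were chosen with earlier results of these data known. Lengths and shared windows of 50 bases came from a mouse annotation other than the release used for counting, and promoters from RefSeq (GRCm38.p6). The edgeR test was tested on simulated data for 1 comparison.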

Additional observations from a re-analysis of the deposited data

Results flagged for a closer look

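The change of Clec7a over time differed between CD9+ and CX3CR1+ macrophages, with a difference between the log2 fold changes of -1.165 (SE 0.1769, adjusted p = 0.00239 by edgeR). Its change in CD9+ macrophages also differed from that in F4/80- cells, by -1.0751 (SE 0.1782, adjusted p = 0.00795), and from that in neutrophils, by -0.7302 (SE 0.1767, adjusted p = 0.0157). Clec4n differed between neutrophils and the mean of both macrophage populations by -1.2773 (SE 0.3384, adjusted p = 0.0208), and between CD9+ macrophages and neutrophils by 1.4581 (SE 0.3828, adjusted p = 0.0239). For Clec4a1 the difference of neutrophils from the macrophages was -1.1252 (SE 0.3577, adjusted p = 0.0483). CX3CR1+ macrophages differed from neutrophils in Clec4a1 by 1.4312 (SE 0.3867, adjusted p = 0.0247) and in Clec4a2 by -1.2932 (SE 0.3407, adjusted p = 0.0214), and F4/80- cells differed from neutrophils in Clec4a1 by 1.8107 (SE 0.4077, adjusted p = 0.0095).

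Each of these was a tested difference between the changes of 2 sets of libraries. The pairs other than CD9+ against CX3CR1+ macrophages, and other than each of neutrophils and F4/80- cells against both macrophage populations, were compared after the data were seen. The comparisons share libraries and are not independent of each other. The added pairs were tested in the main edgeR fit only. Neither DESeq2 nor the other scalings, filters, the replicate block or leaving out single libraries was run on them.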

How the results depend on the processing

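Of 1066 recomputed values of called receptors, 1018 kept their direction and side of the threshold, 48 kept their direction but were no longer called, and 0 reversed. Of 1129 values of uncalled receptors, 39 changed sign and 27 became called. Of 248 recomputed counts of called receptors, 215 stayed within 1.5 times. A filter on 3 CPM in every group left receptors that are low in any group untested by its construction. It gave counts over time of 1 (CD9+), 2 (CX3CR1+), 1 (F4/80-) and 2 (neutrophils), on POD 1 of 0 (CD9+ against CX3CR1+), 2 (CD9+ against F4/80-), 2 (CD9+ against neutrophils), 3 (CX3CR1+ against F4/80-), 2 (CX3CR1+ against neutrophils) and 3 (F4/80- against neutrophils), on POD 14, in the same order, of 2, 1, 3, 3, 3 and 3, and for the interaction of neutrophils of 0. With no fold threshold, the count was 7 over time in CD9+ macrophages and 6 between the macrophage populations on POD 1. The filterByExpr function gave 1 for the interaction of neutrophils, and DESeq2 gave 1 for that of F4/80- cells. Leaving out 1 library in turn, which leaves a group with a single library assumed to vary like the others, gave 3 to 5, 3 to 4, 2 to 3 and 4 to 6 receptors over time in the order above. On POD 1 it gave 2 to 4, 6 to 7, 6 to 7, 7 to 8, 6 to 7 and 6 to 7, and on POD 14 5 to 7, 5, 9, 8, 7 to 8 and 8. The interactions gave 1 to 4 (CD9+ against CX3CR1+), 0 to 3 (neutrophils) and 0 (F4/80-). Whether same-numbered libraries of a day came from the same pool is not given, and the main fit did not use the number as a block. The correlations of same-numbered deviations lay between 0.0132 and 0.1437, which cannot decide whether they share a pool. If they do, the main tests between populations leave that pairing out. The replicate block changed 1 count, that of the interaction of CD9+ with CX3CR1+ macrophages, from 1 to 2. Scaling by library size moved the median of all genes by 0.19 over time in CD9+ macrophages and by -0.24 between the macrophage populations on POD 1. With 2 libraries a group, low receptors such as Clec10a in neutrophils had too few counts for small differences to be seen.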

Other observations

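With Spearman's rho in place of Pearson's r, 1 or both of the 2 genes nearest to each receptor were others. By rho over the 16 libraries, Clec4d was nearest to Pik3ap1 (0.988) and Il1rn (0.985), Clec4e to Skil and Jmjd1c (0.991 each), Clec4n to Srxn1 (0.974) and Plec (0.971), and Clec5a to Gpi1 (0.985) and Rnf19a (0.982). Clec7a was nearest to Nr4a1 (0.965), an immediate early nuclear receptor gene, and Irf7 (0.962), an interferon regulatory factor gene. Clec4a1 was nearest to Zfyve9 (0.985) and Npc2 (0.982), the latter a lysosomal cholesterol carrier, Clec4a3 to Zscan26 (0.982) and Dse (0.977), and Clec12a to Agps (0.968) and Lrmp (0.95).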
